A study of Mus musculus with 22 samples.

Results

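The genes described here encode voltage-gated sodium channels, voltage-gated calcium channels, hyperpolarization-activated cyclic nucleotide-gated (HCN) channels, the sodium leak channel NALCN and the intracellular fibroblast growth factors that bind sodium channels. They were taken from a fixed list of 32 gene symbols, out of 22931 genes with counts. The list names genes and sets no threshold on a measured value, but it was drawn up with earlier results of these data known. After a filter of at least 5 cpm (counts scaled by library size) in at least 2 libraries, 28 of the 32 were among the 11137 genes tested between brain regions. Scn4b, Cacng4, Cacng7 and Hcn4 did not pass it.

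The libraries, 22 in all, were made by CelSeq2, a method that sequences the 3′ ends of polyadenylated RNA, from hippocampus, cortex or cerebellum tissue dissected from 8 mice. CD mice lack most of circTulp4, a circular RNA made from the Tulp4 gene, and their samples are labelled CD in the titles and KO in the descriptions. In these mice a single CRISPR-Cas9 edit replaced the AG of the splice acceptor used in backsplicing by TC, with a further change in the adjacent PAM, and the line descends from 1 mosaic founder male crossed to wild-type C57BL/6 mice. Wild-type (WT) mice carry neither change and share the C57BL/6 background, and no mouse received a treatment; the age and sex of the mice used for RNA-seq were not given in the sources used here. The hippocampus was sampled from 3 WT and 4 CD mice, the cortex from 4 and 4, and the cerebellum from 4 and 3.

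Action potentials rise when voltage-gated sodium channels open, and each such channel consists of a large pore-forming subunit with smaller beta subunits attached. Calcium channels of the high-voltage-activated classes have a pore-forming subunit, an extracellular alpha2delta subunit and a cytosolic beta subunit, and at nerve terminals the calcium they admit triggers transmitter release. T-type calcium channels open at more negative voltages and need no auxiliary subunit, and HCN channels carry a depolarizing current that opens on hyperpolarization. The study sequenced RNA to see whether mRNAs, in particular the targets of microRNAs, change when circTulp4 is lost. The comparisons made here ask which channel genes each region expresses and whether their levels differ between CD and WT mice.

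The windows around the starts of 4 calcium channel auxiliary subunit genes are shown because, as described with their values further on, Cacng5 and Cacna2d2 were higher in the cerebellum and Cacnb1 and Cacnb3 were lower there. Each window runs from 250 bases before to 50 bases after an annotated start, is taken from RefSeq (GRCm38.p6), and is written 5′ to 3′ on the strand of the gene. The windows are Cacng5, chr11:107915006-107915305, minus strand; Cacna2d2, chr9:107399630-107399929, plus strand; Cacnb3, chr15:98634517-98634816, plus strand, and Cacnb1, chr11:98022578-98022877, minus strand. Capitals mark matches to GGGCGG, the GC box that zinc-finger factors of the Sp family recognize, on either strand.
Cacng5: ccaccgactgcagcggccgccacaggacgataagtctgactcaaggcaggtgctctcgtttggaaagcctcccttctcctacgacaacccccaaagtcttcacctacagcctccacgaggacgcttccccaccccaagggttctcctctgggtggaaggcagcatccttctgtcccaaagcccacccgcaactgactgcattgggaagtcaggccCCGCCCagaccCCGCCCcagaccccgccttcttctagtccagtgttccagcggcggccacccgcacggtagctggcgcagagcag
Cacna2d2: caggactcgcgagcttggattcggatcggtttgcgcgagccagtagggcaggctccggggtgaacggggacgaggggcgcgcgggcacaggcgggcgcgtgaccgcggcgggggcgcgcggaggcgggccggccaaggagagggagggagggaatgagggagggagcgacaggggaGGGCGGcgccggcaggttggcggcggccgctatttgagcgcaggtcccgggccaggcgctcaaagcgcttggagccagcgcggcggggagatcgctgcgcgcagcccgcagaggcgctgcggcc
Cacnb3: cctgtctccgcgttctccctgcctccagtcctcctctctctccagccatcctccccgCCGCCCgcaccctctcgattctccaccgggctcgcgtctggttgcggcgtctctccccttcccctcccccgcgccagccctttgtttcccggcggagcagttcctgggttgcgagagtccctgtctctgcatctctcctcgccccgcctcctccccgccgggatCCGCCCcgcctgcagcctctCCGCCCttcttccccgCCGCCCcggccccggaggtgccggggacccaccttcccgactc
Cacnb1: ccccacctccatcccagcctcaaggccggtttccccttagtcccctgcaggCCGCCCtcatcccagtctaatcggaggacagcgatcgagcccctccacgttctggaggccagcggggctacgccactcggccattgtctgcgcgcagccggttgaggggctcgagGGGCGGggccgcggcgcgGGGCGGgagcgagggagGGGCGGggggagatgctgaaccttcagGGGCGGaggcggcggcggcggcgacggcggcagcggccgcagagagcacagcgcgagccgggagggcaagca
GGGCGG occurred 2 times in the Cacng5 window, 1 time in that of Cacna2d2, 4 times in that of Cacnb3 and 5 times in that of Cacnb1. It was found in 35.7% of the 32851 windows of the same length in the table. TATAAA (13.6% of windows) and CAGCTG (16.3%), each also searched on both strands, had no match in these 4 windows. The CpG dinucleotide occurred 17 times in the Cacng5 window, 43 times in that of Cacna2d2, 29 times in that of Cacnb3 and 34 times in that of Cacnb1, where the median of all windows was 7. The windows of the genes that were higher and of those that were lower in the cerebellum thus both held GC boxes, and the match says nothing about which factors bind there. Entries existed for 25 of the 32 genes.

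Totals, with each gene represented by its transcript with the most counts, were between 2760846 and 8858940 counts per library, so that 5 cpm stood for 13.8 to 44.3 counts. The labelled tissues carried their markers. The summed level of 4 markers of forebrain excitatory neurons (Slc17a7, Neurod6, Camk2a, Nrgn) was 10970 to 13310 cpm in the hippocampus, 14090 to 20500 cpm in the cortex and 495 to 757 cpm in the cerebellum. For 4 granule cell markers (Gabra6, Cbln3, Fat2, Etv1) it was 2173 to 3139 cpm in the cerebellum and 88.4 to 275 cpm in the other regions, and for 5 Purkinje cell markers (Pcp2, Car8, Calb1, Itpr1, Ppp1r17) 5525 to 6424 cpm against 332 to 650 cpm. Choroid plexus markers (Ttr, Folr1, Kl, Kcnj13) ranged from 127 to 8291 cpm among hippocampal libraries and stayed between 37.8 and 119 cpm elsewhere. As a check of genotype, counts on the Tulp4 transcript whose first exon lies in circTulp4 were set against those on a transcript that differs in that exon alone. The excess was 2.71 to 3.69 cpm in WT hippocampus and 0.42 to 0.57 cpm in 3 libraries labelled CD hippocampus, but 3.97 cpm (16 counts) in the library labelled CD hippocampus of mouse m118. The cortex and cerebellum libraries of the same mouse had 0.9 and 1.55 cpm, within the CD ranges of 0.14 to 1.29 cpm in the cortex and 0.6 to 2.61 cpm in the cerebellum. WT libraries had 1.45 to 6.02 and 3.12 to 13.64 cpm there, the lowest being 4 counts in the cortex of mouse m244. Leaving out the hippocampal library of mouse m118 shifted the log2 fold changes of channel genes by -0.07 to 0.16 for cortex against hippocampus, by -0.08 to 0.15 for cerebellum against hippocampus and by -0.32 to 0.14 for CD against WT hippocampus. It changed 1 call, that of Cacna1e between cerebellum and hippocampus. For cortex against hippocampus the largest shift was that of Cacna1e, from -0.67 to -0.51. For CD against WT hippocampus, Scn3a went from 0.17 to -0.10, a change of sign. Further values without that library are printed with the genes described below.

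Between regions, a gene was called when its false discovery rate (FDR, Benjamini-Hochberg over all genes tested) in edgeR's quasi-likelihood test was below 0.01 and its fold change was above 2 or below 0.5, that is, its log2 fold change was beyond 1 or -1. WT and CD libraries were weighted equally. The cerebellum differed from both forebrain regions in more channel genes than those regions differed from each other. Between cortex and hippocampus, 7 of 28 channel genes were called, 4 higher in the cortex and 3 higher in the hippocampus, where 4.38% and 4.03% of all genes were. Between cerebellum and hippocampus 16 were called, 6 higher and 10 lower in the cerebellum (all genes: 9.76% and 13%). Between cerebellum and cortex 14 were called, 4 higher and 10 lower in the cerebellum (all genes: 9.71% and 12.9%). The 3 comparisons share libraries. The median absolute log2 fold change of the 28 was 0.52, 1.2 and 0.98 in the same order, against 0.23, 0.43 and 0.43 over all genes, and the signed medians were 0.18, -0.3 and -0.4 against -0.01, 0.02 and 0.02. In pieces of tissue, fewer cells of a type and less RNA per cell cannot be told apart, and the part of the cell types marked above in these differences was not tested.

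**Figure D1:**
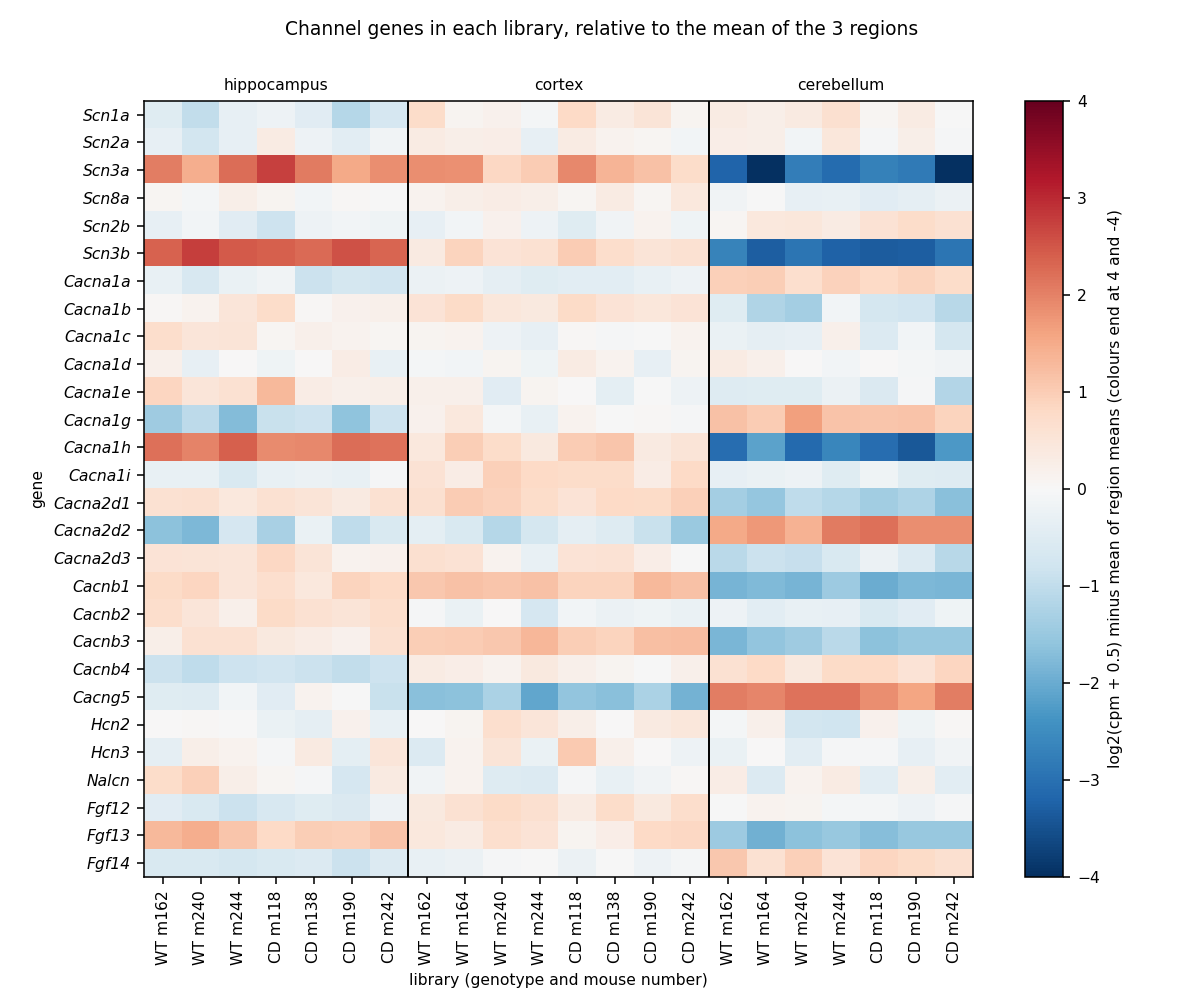
Level of the 28 tested channel genes (rows) in each of the 22 libraries (columns, by region, genotype and mouse number). Colours give log2(cpm + 0.5) minus the mean of the 3 region means of the gene, red above and blue below; Scn3a, Scn3b and Cacna1h are blue in all 7 cerebellar libraries, whereas Cacng5 and Cacna2d2 are red there.

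**Figure D2:**
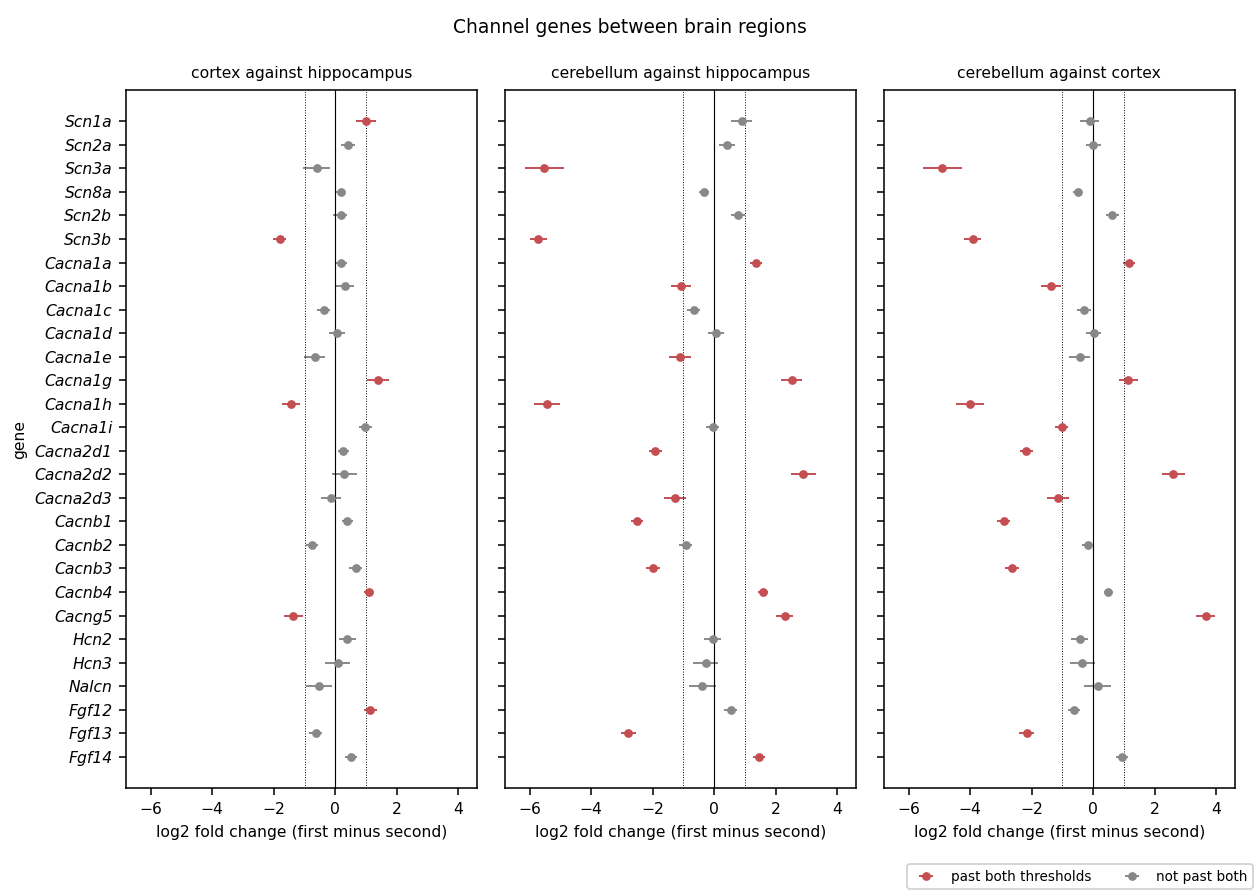
Log2 fold change of each tested channel gene in the 3 comparisons of regions, first region minus second, with 95% intervals from edgeR; red points passed both thresholds and dotted lines mark a 2-fold difference. The 7 red points of cortex against hippocampus lie between -1.81 and 1.38, those of cerebellum against hippocampus between -5.72 and 2.89.

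Among the pore-forming sodium channel subunits, Scn3a showed the widest range. Scn3a (chr2:65457118-65567591 in GRCm38), known for its high expression in the embryonic brain, had lowest, median and highest levels of 77.0, 119 and 190 cpm in the hippocampus and 46.5, 68.5 and 108 cpm in the cortex. In the cerebellum its levels were 0.748, 2.88 and 3.89 cpm, and the highest of these lay below the lowest forebrain library. The log2 fold change was -5.52 (SE 0.31, FDR 6.61e-14) from hippocampus to cerebellum and -4.90 (SE 0.31, FDR 5.43e-13) from cortex to cerebellum, or 45.8-fold and 29.9-fold lower, while cortex and hippocampus did not pass the threshold (log2 fold change -0.61, SE 0.21, FDR 0.024).

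Scn1a (chr2:66270781-66440837), the sodium channel gene mutated in Dravet syndrome, had 6.20, 9.91 and 12.4 cpm in the hippocampus, 13.5, 16.9 and 24.9 cpm in the cortex and 14.1, 17.8 and 22.2 cpm in the cerebellum. Every cortical and cerebellar library thus lay above every hippocampal one. Cortex exceeded hippocampus by a log2 fold change of 1 (SE 0.16, FDR 1.24e-05), which sat on the fold threshold and fell to 0.93 in WT libraries alone and to 0.98 with distinct transcripts of the gene summed. It was also below the threshold, at 0.89 to 0.99, without the hippocampal library of mouse m190, m240 or m242 or the cortical library of mouse m118, m162 or m190. Cerebellum against hippocampus gave 0.89 (SE 0.16, FDR 3.53e-05), below the fold threshold.

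Scn2a and Scn8a, the pore-forming subunits of the axon initial segment of excitatory neurons, differed less. Scn2a had a mean of 117 cpm in the hippocampus, 151 cpm in the cortex and 153 cpm in the cerebellum, with log2 fold changes of 0.41 (SE 0.12, FDR 0.00719) and 0.41 (SE 0.12, FDR 0.00484) against the hippocampus and 0 (SE 0.12, FDR 0.999) between cerebellum and cortex. For Scn8a the means were 295, 334 and 239 cpm, and the largest log2 fold change was -0.50 (SE 0.07, FDR 2.25e-06) in cerebellum against cortex. Neither gene passed the fold threshold in any comparison.

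The sodium channel beta subunits took different courses. Scn3b (chr9:40269216-40291618) had 155, 169 and 216 cpm in the hippocampus, 40.4, 48.7 and 64.2 cpm in the cortex, and 2.66, 2.88 and 4.56 cpm in the cerebellum. The ranges of the 3 regions did not overlap. Its log2 fold changes were -1.81 (SE 0.10, FDR 1.21e-13) for cortex against hippocampus, -5.72 (SE 0.14, FDR 3.5e-21) for cerebellum against hippocampus and -3.92 (SE 0.13, FDR 2.53e-18) for cerebellum against cortex. Scn2b, whose product is linked to the pore-forming subunit by a disulfide bond, was highest in the cerebellum, with 131 to 206 cpm there, 69.3 to 116 cpm in the hippocampus and 88.5 to 140 cpm in the cortex. Its log2 fold change was 0.78 (SE 0.11, FDR 1.22e-06) for cerebellum against hippocampus, below the fold threshold. Scn4b, a beta subunit proposed as the blocker behind resurgent sodium current, lies next to Scn2b on chromosome 9 and had 148 counts in all libraries together, at most 3.15 cpm in any of them. It was not tested.

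The intracellular fibroblast growth factors bind the cytosolic tail of sodium channel pore-forming subunits and are not secreted. Fgf13 (chrX:59062139-59585572) had 66.8, 83.7 and 106 cpm in the hippocampus, 40.9, 53.8 and 68.2 cpm in the cortex and 9.59, 12.9 and 13.7 cpm in the cerebellum. All cerebellar libraries lay below all forebrain libraries. Cerebellum was lower than hippocampus by a log2 fold change of -2.79 (SE 0.12, FDR 3.57e-16) and lower than cortex by -2.16 (SE 0.12, FDR 4.08e-14).

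Fgf14 (chr14:123974441-124677686), mutated in an inherited spinocerebellar ataxia, had the opposite order, with 16.5, 19.5 and 20.6 cpm in the hippocampus, 24.3, 27.2 and 29.9 cpm in the cortex and 44.6, 51.6 and 64.1 cpm in the cerebellum. These ranges were separate as well. Cerebellum exceeded hippocampus by 1.45 (SE 0.09, FDR 1.18e-12) and cortex by 0.94 (SE 0.09, FDR 1.45e-09) on the log2 scale, the latter short of the fold threshold. Fgf12 (chr16:28157783-28753243) peaked in the cortex instead, at 33.7, 41.4 and 45.5 cpm against 14.6, 17.6 and 23.0 cpm in the hippocampus and 23.0, 25.9 and 29.7 cpm in the cerebellum. Cortex against hippocampus gave a log2 fold change of 1.14 (SE 0.10, FDR 7.98e-10) and cerebellum against cortex -0.62 (SE 0.09, FDR 3.76e-06). Fgf12, Fgf13 and Fgf14 were therefore each highest in another region.

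NALCN conducts the background sodium leak that sets the resting potential. Nalcn had few counts, 606 in all libraries together, and mean levels of 5.48 cpm in the hippocampus, 3.78 cpm in the cortex and 4.29 cpm in the cerebellum. Its log2 fold changes between regions were -0.53 (SE 0.21), -0.39 (SE 0.21) and 0.14 (SE 0.22), with FDR of 0.0508 or more.

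**Figure D3:**
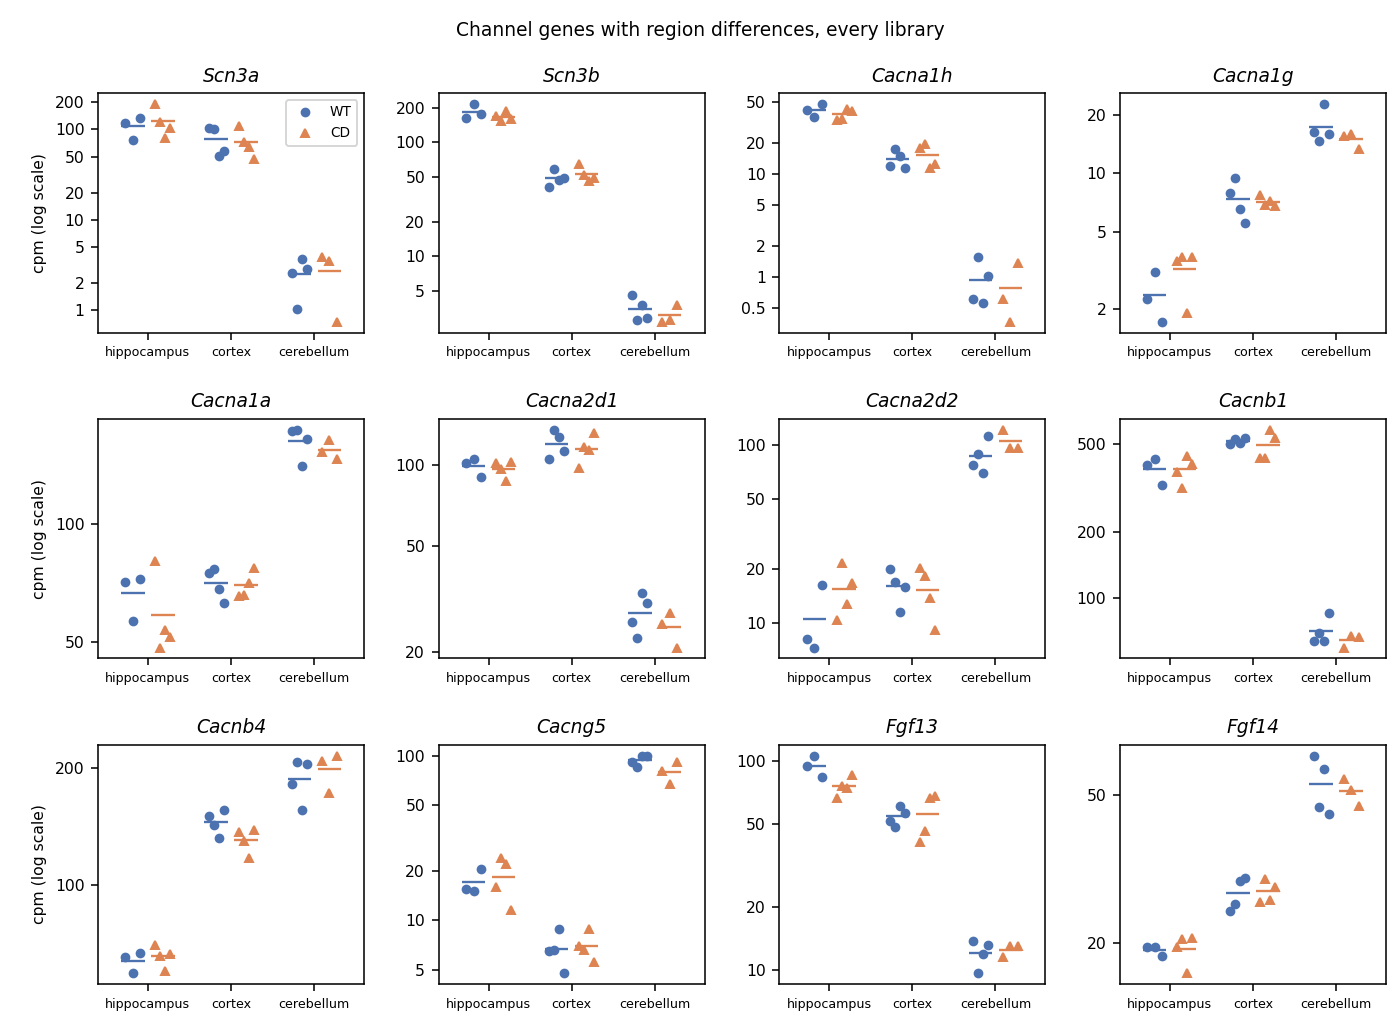
Level of 12 channel genes in every library, in cpm on a log scale, by region; circles are WT and triangles CD libraries, and short lines are group means. For Scn3b the 3 regions do not overlap, and for Cacng5 the cerebellum lies above the hippocampus and the hippocampus above the cortex in every library.

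The pore-forming calcium channel subunits of the P/Q, N and R classes, which serve transmitter release, did not move together. Cacna1a (chr8:84338631-84640251), the P/Q-type subunit whose mutation causes ataxia in mice, had 48.3, 56.5 and 80.2 cpm in the hippocampus, 62.9, 69.4 and 76.8 cpm in the cortex and 140.3 to 174 cpm (mean 159 cpm) in the cerebellum. Cerebellar libraries all lay above those of the forebrain, with log2 fold changes of 1.35 (SE 0.10, FDR 1e-11) against hippocampus and 1.17 (SE 0.09, FDR 5.9e-11) against cortex. Cacna1b (chr2:24603860-24763200), the N-type subunit, was lower in the cerebellum, at 5.57, 8.66 and 13.7 cpm, than in the hippocampus (15.4, 17.1 and 25.3 cpm) and the cortex (19.9, 22.1 and 25.7 cpm). Its log2 fold change was -1.38 (SE 0.16, FDR 4.68e-08) against cortex and -1.08 (SE 0.16, FDR 3.58e-06) against hippocampus, the latter ending at -0.97 in WT libraries alone and at -0.99 without the cerebellar library of WT mouse m240. Cacna1a and Cacna1b thus differed in opposite directions between cerebellum and forebrain.

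Cacna1e (chr1:154390806-154884785), the R-type subunit, had 46.3, 56.8 and 100.4 cpm in the hippocampus, 29.4, 40.4 and 46.2 cpm in the cortex and 17.7, 28.6 and 39.3 cpm in the cerebellum. The highest hippocampal value came from the library labelled CD hippocampus of mouse m118, and the other 6 hippocampal libraries did not exceed 73.7 cpm. The log2 fold change of cerebellum against hippocampus was -1.11 (SE 0.17, FDR 4.32e-06) with that library and -0.96 (FDR 1.65e-06) without it, past the fold threshold in the first case alone. Without the cerebellar library of CD mouse m242 it was -0.98, again below the threshold.

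The L-type subunits Cacna1c and Cacna1d, which couple calcium entry to gene transcription, were called in no comparison of regions. Cacna1c had means of 31.98 cpm in the hippocampus, 24.9 cpm in the cortex and 20.7 cpm in the cerebellum, with a log2 fold change of -0.67 (SE 0.11, FDR 7.99e-06) between cerebellum and hippocampus. For Cacna1d the means were 14.1, 14.5 and 14.8 cpm and the log2 fold changes 0.04, 0.05 and 0.01 (SE 0.12 to 0.13), the smallest spread over regions among the tested calcium channel pore genes.

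The T-type subunits, by contrast, each had another order of regions. Cacna1g (chr11:94408391-94474400), the gene of the channel behind burst firing in thalamic relay neurons, had 1.72, 3.1 and 3.72 cpm in the hippocampus, 5.57, 7.04 and 9.42 cpm in the cortex and 13.4, 15.9 and 22.7 cpm in the cerebellum. No 2 regions overlapped. Its log2 fold changes were 1.38 (SE 0.17, FDR 4.89e-07) for cortex against hippocampus, 2.52 (SE 0.17, FDR 1.63e-12) for cerebellum against hippocampus and 1.14 (SE 0.15, FDR 2.43e-07) for cerebellum against cortex.

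Cacna1h (chr17:25374285-25436334) had the reverse order, with 33.6, 40.7 and 47.6 cpm in the hippocampus, 11.4, 13.7 and 19.5 cpm in the cortex and 0.369, 0.614 and 1.57 cpm in the cerebellum, where the lowest library held 2 counts. Again the ranges were separate. The log2 fold changes were -1.44 (SE 0.14, FDR 8.18e-09), -5.44 (SE 0.21, FDR 3.79e-17) and -4 (SE 0.22, FDR 4.49e-14) in the same order of comparisons. Cacna1i (chr15:80287238-80398292) was highest in the cortex, at 100, 135 and 156 cpm against 52.4, 66.2 and 78.8 cpm in the hippocampus and 56.3, 64.7 and 72.3 cpm in the cerebellum. Cortex exceeded hippocampus by a log2 fold change of 0.97 (SE 0.10, FDR 1.77e-08), just short of the fold threshold, and cerebellum was lower than cortex by -1.02 (SE 0.10, FDR 2.13e-09), just past it. The latter reached from -0.97 to -1, no longer past the threshold, without the cortical library of mouse m240 or m242 or the cerebellar library of mouse m190, m242 or m244. The highest level of Cacna1g was thus in the cerebellum, of Cacna1h in the hippocampus and of Cacna1i in the cortex.

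The alpha2delta subunits carry calcium channels to the cell surface, and those encoded by Cacna2d1 and Cacna2d2 bind gabapentin. Cacna2d1 (chr5:15934264-16374511) had 87.0, 102 and 105 cpm in the hippocampus, 97.3, 116 and 136 cpm in the cortex and 20.7, 25.8 and 33.1 cpm in the cerebellum. Cacna2d2 (chr9:107399733-107529346), disrupted in the ataxic ducky mouse, had 7.28, 12.8 and 21.6 cpm in the hippocampus, 9.12, 16.5 and 20.3 cpm in the cortex and 69.9, 96.3 and 122 cpm in the cerebellum. The cerebellum lay apart from both forebrain regions for each gene, below them for Cacna2d1 and above them for Cacna2d2. Cacna2d1 was lower in the cerebellum by log2 fold changes of -1.91 (SE 0.10, FDR 1.11e-14) against hippocampus and -2.17 (SE 0.10, FDR 5.96e-16) against cortex, while Cacna2d2 was higher by 2.89 (SE 0.19, FDR 1.52e-12) and 2.60 (SE 0.18, FDR 3.12e-12). Cacna2d3 (chr14:28904943-29722775) followed Cacna2d1 with 12.1, 15.9 and 19.98 cpm in the hippocampus, 8.76, 14.7 and 17.3 cpm in the cortex and 4.74, 5.76 and 9.22 cpm in the cerebellum. One cerebellar library reached into the cortical range. Its log2 fold changes were -1.28 (SE 0.17, FDR 4.49e-07) against hippocampus and -1.15 (SE 0.17, FDR 1.92e-06) against cortex. Cortex and hippocampus did not differ past the thresholds in any alpha2delta gene (log2 fold changes -0.13 to 0.29).

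The cytosolic beta subunits, which shield the pore-forming subunit from degradation and tune its gating, also divided. Cacnb1 (chr11:98001508-98023034) had 316, 401 and 440 cpm in the hippocampus, 433, 516 and 580 cpm in the cortex and 59.6, 66.5 and 85.6 cpm in the cerebellum. Cacnb3 (chr15:98628436-98644536) had 37.9, 43.8 and 52.0 cpm in the hippocampus, 62.9, 69.7 and 84.0 cpm in the cortex and 9.11, 11.4 and 15.6 cpm in the cerebellum. For both genes every cerebellar library lay below every forebrain library. Cacnb1 was lower in the cerebellum by a log2 fold change of -2.51 (SE 0.10, FDR 3.86e-17) against hippocampus and -2.90 (SE 0.10, FDR 1.96e-18) against cortex, and Cacnb3 by -1.98 (SE 0.11, FDR 8.06e-14) and -2.65 (SE 0.11, FDR 1.76e-16).

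Cacnb4 (chr2:52428320-52676609), disrupted in the ataxic lethargic mouse, had 59.1, 65.3 and 70.1 cpm in the hippocampus, 117, 137.7 and 156 cpm in the cortex and 156, 204 and 215 cpm in the cerebellum. Hippocampal libraries lay below all others. Cortex exceeded hippocampus by a log2 fold change of 1.09 (SE 0.08, FDR 2.61e-11; 1, on the threshold, in CD libraries alone), and cerebellum exceeded it by 1.58 (SE 0.08, FDR 5.62e-15), whereas cerebellum against cortex gave 0.49 (SE 0.07, FDR 3.08e-06), below the fold threshold. Cacnb2, the beta subunit of cardiac L-type channels, was highest in the hippocampus with a mean of 60.3 cpm, against 34.8 cpm in the cortex and 31.3 cpm in the cerebellum. Its log2 fold changes against the hippocampus were -0.77 (SE 0.09, FDR 4.02e-07) and -0.93 (SE 0.10, FDR 1.08e-08), neither past the fold threshold.

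The gamma subunit genes of the list belong to the family of transmembrane AMPA receptor regulatory proteins, which accompany AMPA-type glutamate receptors. Cacng5 (chr11:107874604-107915055) had 11.6, 15.9 and 24.1 cpm in the hippocampus, 4.78, 6.63 and 8.93 cpm in the cortex and 67.1, 92.1 and 100.5 cpm in the cerebellum. The ranges were separate, with the cortex lowest. Its log2 fold changes were -1.36 (SE 0.15, FDR 1.05e-07) for cortex against hippocampus, 2.29 (SE 0.14, FDR 1.59e-13) for cerebellum against hippocampus and 3.65 (SE 0.15, FDR 5.14e-17), or 12.6-fold, for cerebellum against cortex. Cacng4, its neighbour on chromosome 11, had 46 counts in all libraries and at most 1.05 cpm. Cacng7 had 2 counts, both in 1 hippocampal library, and 0 in the other 21, where a count of 0 allows up to 3 counts, or 0.339 to 1.09 cpm by library. Such intervals cover counting error only, and neither gene could be compared.

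HCN channel genes were not called between any regions. Hcn2 had means of 81.1 cpm in the hippocampus, 107 cpm in the cortex and 78.0 cpm in the cerebellum, and passed FDR 0.01 but not the fold threshold in cerebellum against cortex (log2 fold change -0.44, SE 0.13, FDR 0.0063). Hcn3 had 12.98, 13.9 and 10.7 cpm, with FDR of 0.12 or more. Hcn4, the main HCN gene of the cardiac pacemaker, had 10 counts in all, in 4 libraries of the cortex, and was not tested.

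The other genes of these families, 27 on a list of related sodium, calcium and HCN channel genes, partners of NALCN and anchors of the axon initial segment, were counted in the same fits. Counts sufficed for 14 of them. Between cortex and hippocampus 1 was called, higher in the cortex (all genes: 4.38%). Between cerebellum and hippocampus 2 were higher and 2 lower in the cerebellum (all genes: 9.76% and 13%). Between cerebellum and cortex 1 was higher and 2 lower in the cerebellum (all genes: 9.71% and 12.9%). Whether these numbers differ from the shares of all genes was not tested. Cacng3, a further AMPA receptor regulatory protein, had log2 fold changes of 1.46 (SE 0.11) for cortex against hippocampus, -2.53 (SE 0.13) for cerebellum against hippocampus and -3.99 (SE 0.13) for cerebellum against cortex. Pex5l, whose product TRIP8b is the auxiliary subunit of HCN channels, was lower in the cerebellum by -2.46 (SE 0.11) and -2.09 (SE 0.11). Fgf11, the remaining intracellular fibroblast growth factor, was higher there by 1.05 (SE 0.13) and 1.77 (SE 0.13), and Cacng2, mutated in the stargazer mouse, by 1.29 (SE 0.20) against hippocampus.

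The deposited table holds several transcripts for most of these genes, and many share nearly all their counts. For every called difference whose gene had further distinct transcripts with at least 200 counts, those transcripts pointed the same way (14, 40 and 31 transcripts in the 3 comparisons). The size could differ. For Fgf14 the transcript used here, with 4277 counts, gave a log2 ratio of mean cpm of 1.43 in cerebellum against hippocampus, and one with another 3′ end and 1342 counts gave 0.61. An Fgf12 transcript with 384 counts had a ratio of 1.25 in the same comparison, where the main transcript with 3715 counts had 0.52. These ratios were not tested. The 3′ ends of Cacna1d, Cacna1h and Fgf14 lie within the opposite-strand genes Chdh, Tpsg1 and Itgbl1, which had 92, 28 and 170 counts in all libraries, against 1906, 2497 and 4277 for the channel genes. Whether counting used the strand was not given in the sources used here, so reads of these pairs may not be separable.

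Between CD and WT mice, no channel gene passed the thresholds in any region, in edgeR or in DESeq2. Counts sufficed to test 27 of them in hippocampus, 27 in cortex and 25 in cerebellum, and the smallest FDR in edgeR was 0.9975, 0.9999 and 0.9806. Over all genes, 0% passed in each of the 3 regions. At an unadjusted p below 0.05, which selects genes for description and is not a call, there were 3 channel genes in the hippocampus (4.22% of all genes), 0 in the cortex (3.3% of all genes) and 1 in the cerebellum (4.56% of all genes). Without the library labelled CD hippocampus of mouse m118 there were 6 in the hippocampus (4.42% of all genes), and 0 passed the thresholds. The log2 fold changes, CD minus WT, ranged from -0.77 to 0.58 in the hippocampus, from -0.18 to 0.33 in the cortex and from -0.31 to 0.32 in the cerebellum. Their medians were 0, -0.018 and -0.115, against -0.006, -0.005 and -0.002 over all genes.

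Cacna1c had the smallest p in the hippocampus. It had 35.1, 36.3 and 41.5 cpm in the 3 WT libraries (mice m240, m244 and m162) and 26.8, 26.8, 28.03 and 29.3 cpm in the 4 CD libraries (mice m118, m242, m190 and m138). The highest CD library lay below the lowest WT library. Over all relabellings of the libraries, an exact test of the difference in mean log2 cpm gave p = 0.0286, the smallest possible with these group sizes. Adjusted over only the genes described with all libraries for their p, it was 0.107 in that exact test. Those genes were picked for a small p in the same libraries, so this adjustment leaves out the other genes tested. The same exact test gave p = 0.0857 for Nalcn and for Fgf13 in the hippocampus and p = 0.114 for Cacnb4 in the cortex. The share of all genes separated in this way was not counted. Mean levels were 37.6 ± 3.44 cpm in WT (SD, n = 3) against 27.7 ± 1.18 cpm in CD mice (SD, n = 4), which is a log2 fold change of -0.43 (SE 0.12, 95% interval -0.69 to -0.18, unadjusted p = 0.00344 and FDR 0.9975 in edgeR's quasi-likelihood test). Without the library labelled CD hippocampus of mouse m118 it was -0.41 (FDR 0.998). The difference was not seen in the cortex, where the log2 fold change was 0.08 (95% interval -0.22 to 0.39), and it was -0.27 (95% interval -0.67 to 0.13) in the cerebellum.

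Fgf13 had 83.7, 95.1 and 106 cpm in WT hippocampus and 66.8, 74.7, 76.3 and 85.5 cpm in CD hippocampus. The groups overlapped in 1 library of each. The log2 fold change was -0.32 (SE 0.12, unadjusted p = 0.0201, FDR 0.9975 in edgeR), and -0.26 without mouse m118, in the cortex 0.03 and in the cerebellum 0.05. Nalcn had 5.16, 7.48 and 8.83 cpm in WT and 2.51, 4.19, 4.55 and 5.68 cpm in CD hippocampus, which stood for 17 to 74 counts per library. One CD library lay above the lowest WT library. Its log2 fold change was -0.77 (SE 0.30, unadjusted p = 0.0266, FDR 0.9975 in edgeR), -0.79 without mouse m118 and -0.31 (95% interval -1.01 to 0.39) in the cerebellum. In the cortex Nalcn had too few counts to be tested. Its levels there were 2.79 to 4.83 cpm in WT and 3.44 to 4.50 cpm in CD libraries, so no decrease was seen.

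The 6 genes without the library labelled CD hippocampus of mouse m118 were Cacna1c, Fgf13, Nalcn and a further 3 calcium channel genes. Cacna1e had 56.8, 62.03 and 73.7 cpm in WT hippocampus, and 46.3, 47.6 and 49.6 cpm in the remaining 3 CD libraries against 100.4 cpm in that of mouse m118. Its log2 fold change was -0.09 with that library and -0.41 without it (SE 0.12, unadjusted p = 0.00681, FDR 0.9984 in edgeR). Cacna1a had 56.5, 70.8 and 72.3 cpm in WT hippocampus, and 48.3, 51.4 and 53.4 cpm in CD libraries against 80.2 cpm in mouse m118. The corresponding values were -0.20 and -0.37 (SE 0.13, unadjusted p = 0.0133, FDR 0.9984 in edgeR). For both genes the 3 CD libraries lay below all WT libraries and the library of mouse m118 above them. Neither gene was put to the exact test, and the share of all genes separated in this way was not counted. Cacna2d2 had 7.28, 8.17 and 16.3 cpm in WT and 10.4, 12.8, 16.9 and 21.6 cpm in CD hippocampus, so that the groups overlapped with or without the 10.4 cpm of mouse m118. Its log2 fold change was 0.58 with that library and 0.72 without it (SE 0.30, unadjusted p = 0.0354, FDR 0.9984 in edgeR).

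In the cerebellum Scn2b had 131, 155, 166 and 172 cpm in the 4 WT libraries and 188, 192 and 206 cpm in the 3 CD libraries. All CD libraries lay above all WT libraries. The exact test over relabellings gave p = 0.0571, and 0.107 adjusted over only the genes picked for their p in the same libraries. The share of all genes separated in this way was not counted. The mean was 156 ± 18.2 cpm in WT (SD, n = 4) against 195 ± 9.39 cpm in CD mice (SD, n = 3), which is a log2 fold change of 0.32 (SE 0.11, unadjusted p = 0.0116, FDR 0.9806 in edgeR), against -0.01 in the hippocampus and -0.06 in the cortex. Markers of 14 cell types, compared between the same groups, gave 3 genes at an unadjusted p below 0.05. In the hippocampus Etv1, 1 of 2 granule cell markers tested there, had a log2 fold change of 0.54 (SE 0.13), and 0.52 without mouse m118. Cbln3, the other marker tested, had -0.07 (SE 0.18). The summed level of all 4 was 211 to 253 cpm in CD against 155 to 199 cpm in WT libraries, with Fat2 at 0 in 1 hippocampal library. Etv1 made up most of this sum, with means of 227.4 cpm in CD and 156.4 cpm in WT libraries, against 10.26 to 14.05 cpm for Cbln3. The sum therefore largely repeats the difference in Etv1. How many other genes separate the genotypes in this way was not counted. In the cerebellum Fat2, 1 of 4 granule cell markers tested, had a log2 fold change of 0.45 (SE 0.14). Gabra6, Cbln3 and Etv1 had 0, -0.04 and -0.19 there. The sum, to which Fat2 gave 27.1 to 46.5 cpm, was 2173 to 2965 cpm in CD against 2457 to 3139 cpm in WT libraries. Gad2, 1 of 4 interneuron markers tested there, had -0.24 (SE 0.10), Gad1 -0.23 (SE 0.12), Sst -0.14 (SE 0.21) and Pvalb 0.12 (SE 0.09). The interneuron list summed to 1769 to 1983 cpm in CD against 1660 to 1891 cpm in WT libraries. Pvalb, at 1310 to 1627 cpm over cerebellar libraries, made up most of that sum. Without the hippocampal library of mouse m118, Camk2a (-0.47), Vip (0.40) and Tubb3 (0.41) also fell below that p in the hippocampus (4.42% of all genes). They are markers of forebrain excitatory neurons, interneurons and neurons in general. The other markers of these lists tested there had an unadjusted p of 0.153 or more in edgeR. Choroid plexus markers summed to 127 to 4199 cpm in CD and 147 to 8291 cpm in WT hippocampus. The part of these markers in the differences between genotypes was not tested.

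In the cortex the smallest p belonged to Cacnb4, with 132, 143, 151 and 156 cpm in WT and 117, 130, 137 and 138.4 cpm in CD libraries. The groups overlapped. The log2 fold change was -0.16 (SE 0.11, unadjusted p = 0.157, FDR 0.9999 in edgeR).

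**Figure D4:**
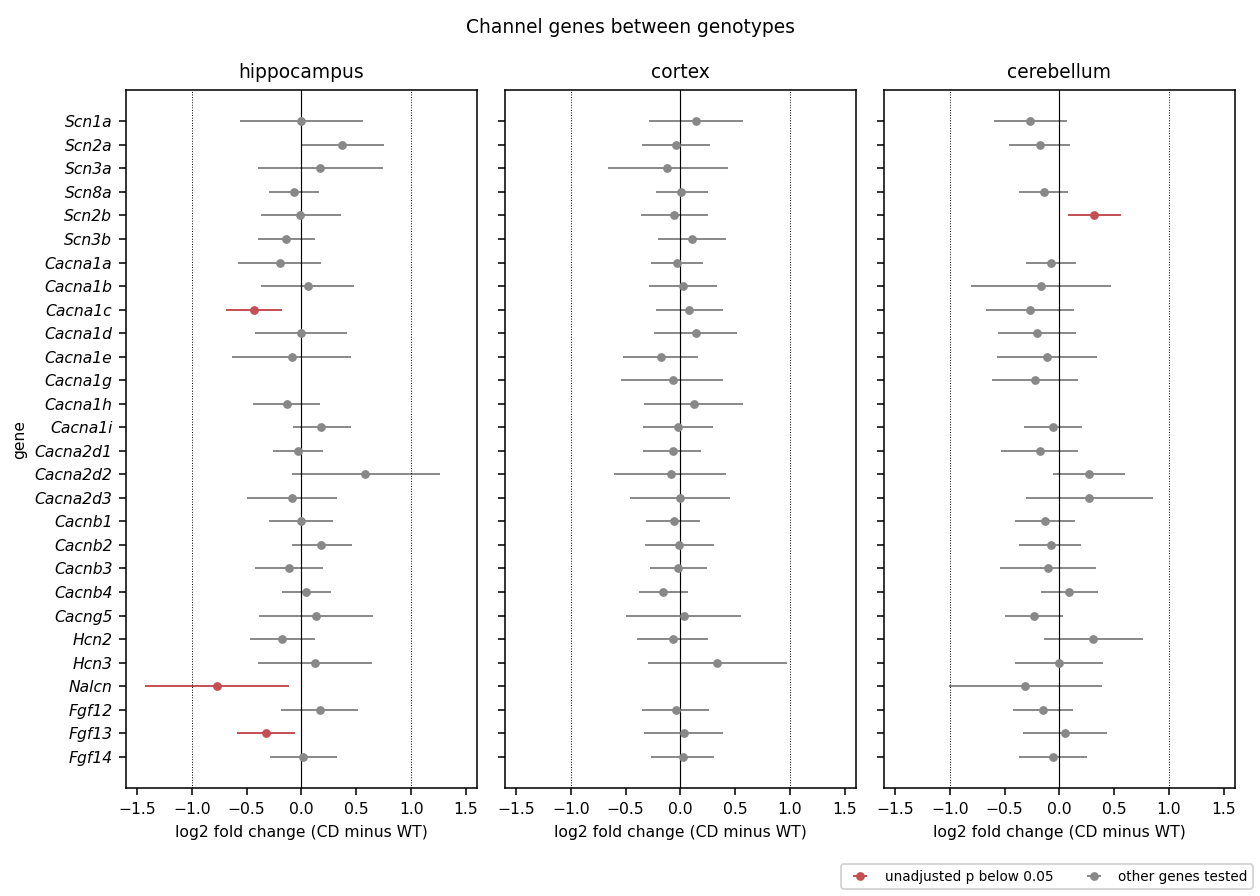
Log2 fold change, CD minus WT, of each channel gene in the 3 regions with its 95% interval from edgeR; red marks an unadjusted p below 0.05, dotted lines a 2-fold difference, and a gene without a point in a region had too few counts there. Cacna1c, Fgf13 and Nalcn are red in the hippocampus and Scn2b in the cerebellum, and none has an FDR under 0.98.

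**Figure D5:**
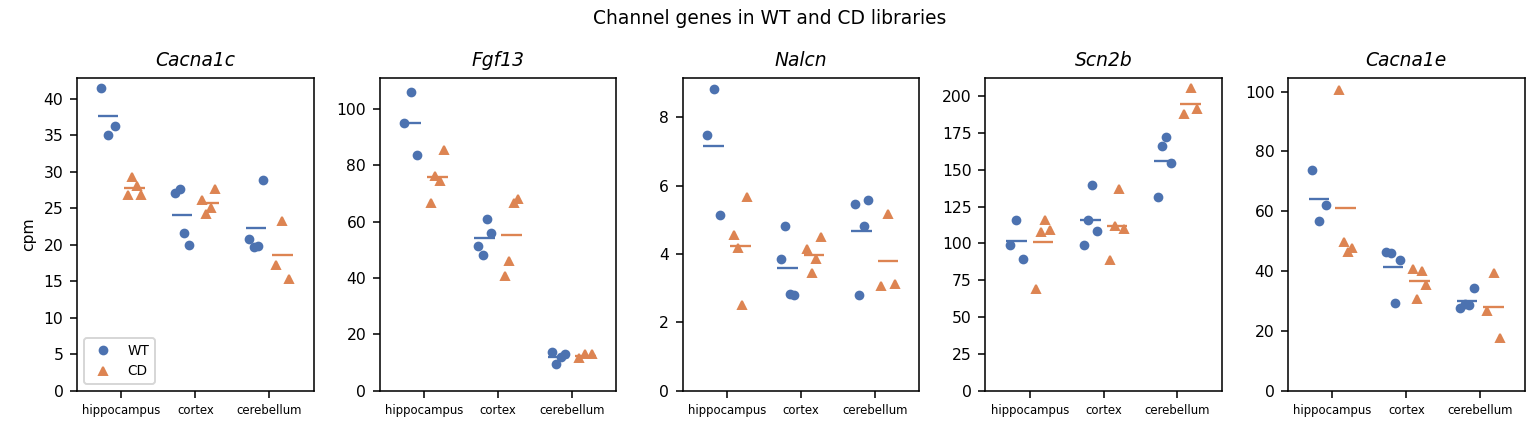
Level of 5 channel genes in every library, in cpm from 0, by region; circles are WT and triangles CD libraries, and short lines are group means. Cacna1c is lower in all 4 CD than in all 3 WT hippocampal libraries, and the share of all genes separated in this way was not counted. For Cacna1e 1 CD hippocampal library reaches 100.4 cpm.

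The intervals show how large a difference these libraries could have held. The 95% interval lay within a 2-fold change for 25 of 27 hippocampal, 27 of 27 cortical and 24 of 25 cerebellar comparisons, and within a 1.5-fold change for 18, 24 and 17 of them. The exceptions at 2-fold were Nalcn in both regions (lower bounds -1.43 and -1.01) and Cacna2d2 in the hippocampus, whose log2 fold change was 0.58 (95% interval -0.09 to 1.26). For Scn2a, next in the hippocampus, it was 0.37 (95% interval 0 to 0.75), and 0.21 (95% interval -0.09 to 0.51) without the library labelled CD hippocampus of mouse m118, which at 174 cpm lay above the 103 to 124 cpm of the other 3 CD libraries and the 81.9 to 109.9 cpm of WT libraries.

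With the 3 regions together and the mouse as a random block in limma, 0 of 28 channel genes and 0% of all genes passed the thresholds. Cacna1c alone had an unadjusted p below 0.05 (3.58% of all genes), with a log2 fold change of -0.21 (SE 0.09, 95% interval -0.39 to -0.03, unadjusted p = 0.0224, FDR 0.9997 in limma). Without the library labelled CD hippocampus of mouse m118 there were 3 such genes (3.91% of all genes), Cacna1c at -0.20 (unadjusted p = 0.0321), Cacna1a at -0.15 (unadjusted p = 0.025) and Cacna1e at -0.26 (unadjusted p = 0.0274), with an FDR of 0.9994 in limma. With all libraries, all 28 intervals lay within a 2-fold change and 24 within a 1.5-fold change. The genotype by region interaction in edgeR had no channel gene and 0% of all genes at an FDR below 0.05, and no channel gene at an unadjusted p below 0.05 (3.91% of all genes). Its smallest p was that of Cacna1c (unadjusted p = 0.0522, FDR 0.999 in edgeR), so a difference in its genotype effect between regions was not shown. Without that library the interaction again had 0 channel genes at an unadjusted p below 0.05 (3.64% of all genes), with the smallest at 0.0734 for Cacna1c in edgeR. With all libraries, 0 of the 14 related genes had an unadjusted p below 0.05 in the hippocampus, the cortex or the cerebellum. Their log2 fold changes were between -0.43 and 0.39. Over the regions together 1 of the 14 reached that p, Fam155a (Nalf1), which encodes a partner of NALCN, with a log2 fold change of 0.30 (SE 0.14, unadjusted p = 0.0472, FDR 0.9997 in limma), and 0.24 (unadjusted p = 0.0799) without the library labelled CD hippocampus of mouse m118. In the hippocampus without that library, Fgf11 had 0.50 (SE 0.16, unadjusted p = 0.0101, FDR 0.9984 in edgeR; 4.42% of all genes below 0.05), against 0.36 with it.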

How the data were processed

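CelSeq2 3′ RNA-seq libraries (6-base molecular identifiers) were sequenced on an Illumina NextSeq. The authors aligned reads to mm10 with STAR and quantified them with the End Sequence Analysis Toolkit. The deposited values are raw read counts per RefSeq transcript, with no normalization. Tool versions, the RefSeq release, the use of strand and whether molecular identifiers were collapsed were not given in the sources used here. Group, region and mouse come from the sample labels. The paper's legend gives 1 library fewer per group, and all 22 libraries were used.

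Of 85964 transcripts, 69288 (81.4% of counts) matched a gene symbol in the RefSeq annotation of GRCm38, and the transcript with the most counts over all libraries stood for its gene. Genes reaching 5 cpm in 2 or more libraries (of the 22 for regions, of the region for genotypes) were scaled by TMM and tested with edgeR 4.0.16 (glmQLFit, glmQLFTest) in R 4.3.3. Genotypes over all regions were compared with limma 3.58.1 (voom, mouse as random block), and DESeq2 1.42.0 served as an alternative. Cpm values are scaled by TMM. The interaction was tested at FDR below 0.05. On simulated counts with genes changed 3- or 4-fold, cortex against hippocampus (10911 genes) recovered 100% of each, and CD against WT in hippocampus (9833 genes) 98.9% and 100%, with 1 unchanged gene called. The interaction (11016 genes) recovered 98% and 97%, with 11 unchanged genes called. Every simulated gene had the same dispersion, mice had no effect of their own, and genes with low mean counts were left unchanged. Differences below 3-fold, such as those described between genotypes, were not simulated, so these rates do not apply to them.

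Libraries of a group come from separate mice, and regions of 1 mouse share its number, so mouse numbers pair the regions. The deviations of same-mouse libraries from their group means correlated with r between -0.086 and 0.19 (median 0.048 over 20 pairs). The genes and the lists of related genes and markers were chosen with earlier results of these data known, and 2 genes of those lists are not reported here. All 32 genes are named. Genes past the thresholds between regions are given with lowest, median and highest level, and between genotypes those at an unadjusted p below 0.05 or with the smallest p of the region are given in every library. Genes at that p without the library labelled CD hippocampus of mouse m118, and the genotype values of Scn2a and Scn3a, were added after their values were seen. Among related genes, values are printed for those past the thresholds between regions and for those at that p between genotypes, with or without that library. Marker genes are named for a difference at that unadjusted p, and transcripts of Fgf12 and Fgf14 were singled out after their values were seen. Alternatives were RLE size factors, DESeq2, other filters, no fold threshold, summed transcripts, 1 genotype at a time, all libraries in 1 fit, the mouse as a replicate block, and each library left out. Python 3.11 was used for tables and figures.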

Additional observations from a re-analysis of the deposited data

Results flagged for a closer look

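In the groups of 4 libraries, 122 combinations of gene and group were examined for a library far from the other 3 (Dixon's criterion, 0.829 for 4 values). Of these, 7 were found, and chance gives about 1 in 20, or 6.1.

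In CD hippocampus, the library labelled with mouse m118 had 100.4 cpm of Cacna1e, against 46.3 to 49.6 cpm in the other 3, and 80.2 cpm of Cacna1a, against 48.3 to 53.4 cpm. That library also had the lowest total of the hippocampus (4025493 counts) and the Tulp4 value of a WT library. Mouse 190 had 1.92 cpm of Cacna1g, against 3.54 to 3.72 cpm, and 97.1 cpm of Hcn2, against 67.3 to 71.8 cpm.

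In WT cortex, mouse m244 had 109.5 cpm of Scn2a, against 163 to 172 cpm, and mouse m240 had 29.4 cpm of Cacna1e, against 43.8 to 46.2 cpm. In WT cerebellum, mouse m244 had 28.8 cpm of Cacna1c, against 19.7 to 20.8 cpm.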

How the results depend on the processing

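Of the counts, and of the differences past the thresholds between regions or described between genotypes for their p with all libraries, none changed direction in any alternative. Without a fold threshold, 16 channel genes instead of 7 differed between cortex and hippocampus, 23 instead of 16 between cerebellum and hippocampus and 20 instead of 14 between cerebellum and cortex. The share of all genes past the FDR alone was not counted, so these larger counts have nothing to be set against. With the mouse as a replicate block, which pairs regions of 1 animal, the counts were 7, 16 and 14, and the block changed no other call. Leaving out 1 library gave 6 to 8, 15 to 16 and 13 to 14. Of 1139 values of single genes under alternatives, 1121 kept their side of the thresholds and 18 fell below the fold threshold, those of Scn1a, Cacna1b, Cacna1e, Cacna1i and Cacnb4 given above. Counts between genotypes were 0 under each alternative run. Few libraries per group and low counts (Nalcn, Scn4b, Cacng4, Cacng7, Hcn4) limit the precision.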

Other observations

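Levels of the tested channel genes varied between libraries of the same region by a median coefficient of variation of 16.8% (hippocampus), 15.3% (cortex) and 14.8% (cerebellum). Cacnb4 varied least in the hippocampus (5.94%) and Cacna1a least in the cortex (7.69%) and the cerebellum (8.14%). The widest variation was that of Cacna2d2 in the hippocampus (39.0%), Hcn3 in the cortex (40.4%) and Cacna1h, with its few counts, in the cerebellum (52.3%).

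Several sodium channel genes of the skeletal muscle and peripheral nerve had few counts in these brain regions. Scn4a, the sodium channel gene of skeletal muscle, had 2 counts in all 22 libraries, and Scn10a and Scn11a, known from sensory neurons, had 4 each. Scn9a had 19. Cacna1s, the L-type subunit of skeletal muscle, had 17, and Cacna1f, that of the retina, had 72. None reached the filter, so no region or genotype was compared for them. Cacng8, a gamma subunit gene of the related list, also had 2 counts. Whether transcripts of such genes were missed at their 3′ ends was not tested, so few counts do not show absence of expression.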
